A study of Mus musculus with 2 samples.

Results

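The region of the developmental genes Pax2, Tlx1, Lbx1 and Fgf8 on mouse chromosome 19 was examined as a window of 1.5 Mb, chr19:44500001-46000000 in the mm8 build, for DNA recovered with an antibody against PHF19. Its members are the PHF19 peaks that the authors deposited and that overlap the window, 28 of 3445 peaks in the whole list. The window was picked from the deposited peaks themselves, with their positions and earlier results of these data in view, so the number of peaks and their enrichment over input describe how it was chosen and are given with no test. The series holds 1 chromatin immunoprecipitation (ChIP) library made with a custom rabbit polyclonal antibody against PHF19, and 1 input library made with no antibody. Both come from pluripotent cells of the mouse embryonic stem (ES) cell line E14, grown on gelatin in medium with the cytokine LIF. With 1 library per group no value has a replicate error. Every interval below is an exact 95% interval that covers counting error only, and PCR-amplified reads are not independent molecules. The labels give no library with an unrelated antibody or from cells without PHF19, so enrichment is what this antibody recovered. Expression was not measured, so neither the cell type nor the activity of these genes was checked.

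PHF19 is a Polycomb-like protein that joins Polycomb repressive complex 2, the enzyme complex that methylates lysine 27 of histone H3, and its Tudor domain binds histone H3 methylated at lysine 36. In ES cells this complex sits at many genes that are silent there and are switched on later in development, mostly over stretches rich in CG dinucleotides. All 4 genes that name the region are of this developmental kind. Pax2 encodes a paired-box transcription factor of the kidney, eye, ear and midbrain-hindbrain boundary. Tlx1 encodes a homeobox transcription factor needed to form the spleen, and Lbx1 one needed for migrating muscle precursors of the limb and for dorsal spinal neurons. Fgf8 encodes a secreted growth factor that acts through FGF receptors in limb, face and brain patterning, and enhancers of Fgf8 are known to lie among and beyond its neighbour genes, within Fbxw4 among others.

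In the RefSeq gene table, which is of the GRCm38.p6 assembly, the genes follow each other as Pax2, Tlx1, Lbx1 and Fgf8. Tlx1 and Lbx1 are direct neighbours with 0 listed genes between them. Between Pax2 and Tlx1 lie 16 listed genes, of which 8 code for protein (Slf2, Sema4g, Mrpl43, Twnk, Lzts2, Pdzd7, Sfxn3 and Kazald1). Between Lbx1 and Fgf8 lie 12, of which 4 code for protein (Btrc, Poll, Dpcd and Fbxw4). No mm8 annotation was used here, so the peaks below are named by position and none is assigned to a gene, exon or promoter.

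Promoter sequences show the kind of DNA at the starts of the member genes. The RefSeq promoter table (GRCm38.p6) held 2 of the 4 genes, Pax2 and Tlx1. The 250 bases before a start are printed 5′ to 3′ on the plus strand, with each CG in capitals, for Tlx1 and for those of the 3 listed Pax2 starts with the fewest and the most CG. Their coordinates are of GRCm38.p6 and cannot be set beside the mm8 coordinates of the peaks.
Pax2, start 1, chr19:44746351-44746600: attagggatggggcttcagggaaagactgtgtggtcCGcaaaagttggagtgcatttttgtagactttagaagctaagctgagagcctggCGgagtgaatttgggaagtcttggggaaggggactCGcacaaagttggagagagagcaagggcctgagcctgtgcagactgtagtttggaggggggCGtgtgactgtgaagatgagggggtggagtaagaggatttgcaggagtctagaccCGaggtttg
Pax2, start 3, chr19:44756656-44756905: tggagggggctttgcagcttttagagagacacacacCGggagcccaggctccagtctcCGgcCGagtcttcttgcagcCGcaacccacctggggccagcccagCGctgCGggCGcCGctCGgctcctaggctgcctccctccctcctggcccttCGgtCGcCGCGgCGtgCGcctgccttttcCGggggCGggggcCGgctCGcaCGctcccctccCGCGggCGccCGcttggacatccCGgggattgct
Tlx1, chr19:45150465-45150714: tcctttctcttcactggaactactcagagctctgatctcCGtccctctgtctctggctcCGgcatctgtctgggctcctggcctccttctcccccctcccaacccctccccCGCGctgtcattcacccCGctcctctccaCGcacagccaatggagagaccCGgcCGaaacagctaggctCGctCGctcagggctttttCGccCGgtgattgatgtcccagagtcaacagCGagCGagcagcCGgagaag

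CG, which reads the same on both strands, occurred 5 times before Pax2 start 1, 20 times before start 2 and 25 times before start 3. Before Tlx1 it occurred 15 times. Among all promoters of the table, cut to the same 250 bases, the median was 6, and 55.6% held at least 5, 17.9% at least 20, 10.7% at least 25 and 27.3% at least 15. Pax2 start 1 was thus near the middle of all promoters, and Pax2 starts 2 and 3 and Tlx1 lay in the upper part. The share of G and C was 52.8%, 60.8% and 72.8% before the 3 Pax2 starts and 62.0% before Tlx1, against a median of 52.4%. Of 17 genes of the Pax, Tlx, Lbx and Fgf8 families, 10 were in the table, with 5 CG (Pax2 start 1) to 37 CG (Fgf18, a growth factor of the Fgf8 subfamily). Of the 12 protein-coding genes between the members, 8 were in the table. At the start with the most CG they held 29 (Lzts2), 28 (Twnk), 24 (Sema4g), 22 (Mrpl43), 17 (Kazald1), 10 (Sfxn3), 6 (Dpcd) and 1 (Pdzd7). Counts as high as those of Pax2 and Tlx1 were thus also found among their neighbours.

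The 28 peaks fell into 11 separate groups when peaks with gaps of at most 10 kb were joined, and the groups are numbered 1 to 11 along the chromosome. The joining distance lay well between the gaps on either side of it, since the largest gap joined was 5200 bp and the smallest gap not joined was 35.3 kb. Of the groups, 3 held 3 or more peaks and together 18 of the 28 peaks. These were group 4 with 10 peaks (chr19:44787484-44815401), group 8 with 5 (chr19:45196501-45214356) and group 9 with 3 (chr19:45276765-45292029). They covered 4.07% of the window. Their peaks held 74.6% of the ChIP reads found in its peaks, but also most of the peak length. In groups 4, 8 and 9 the peaks summed to 17.9, 10.3 and 11.6 kb, of 54.7 kb in the window. ChIP density in them was 46.1, 45.9 and 47.5 reads per kb, against 45.4 over all 28 peaks. Groups 5 and 7 were pairs, and the other 6 groups were single peaks. In the whole list of 2502 groups, 2044 were single peaks, 8 held at least 10 peaks and 5 held more than 10, so group 4 was among the 8 with the most peaks.

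Over all 28 peaks, 2484 ChIP reads stood against 674 input reads, for a fold of 4.11 (3.77 to 4.48), where fold is the ChIP count over the input count, each divided by its library's distinct reads. Of the reads on chromosome 19, the peaks held 0.486% in the ChIP and 0.12% in the input. A fold of at least 2 was found in 27 of the 28 peaks, where 98.6% of all peaks in the list passed it, and a fold of at least 4 in 11 of 28, where 40.6% of the list passed. The median fold was 3.86, against 3.68 over the list, and the median width 1534 bp against 1425 bp. In these measures the members were much like other deposited peaks.

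**Figure D1:**
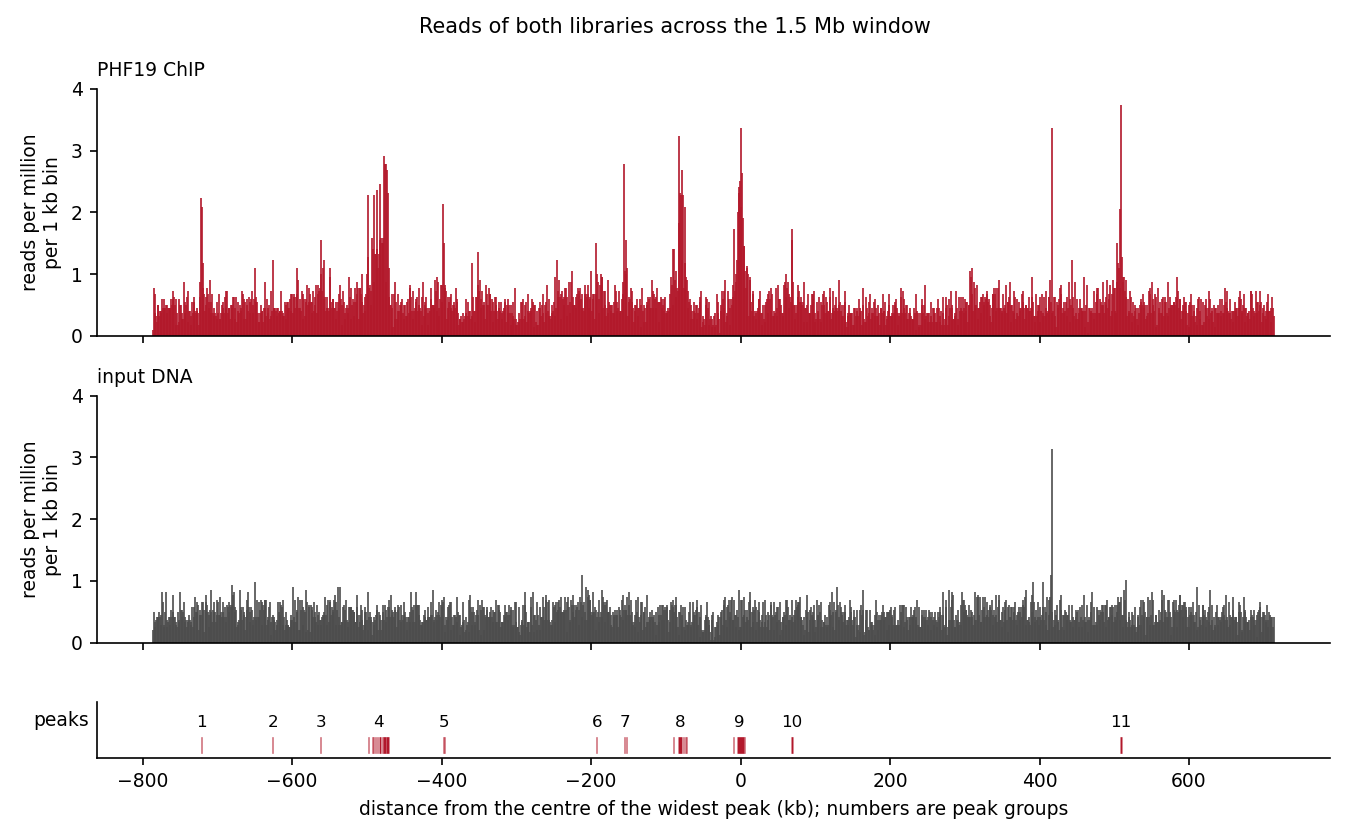
Reads scaled by each library's distinct reads (RPM) in bins of 1 kb (vertical axes, same scale) for the PHF19 ChIP library (top) and the input library (middle), against the distance in kb from the centre of the widest peak. The bottom strip shows the 28 deposited peaks as bars with the group numbers. ChIP reads pile up at groups 4, 8, 9 and 11, where the input shows no rise of that size. About 0.4 Mb to the right of the centre, 1 bin is about as high in the input as in the ChIP.

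Group 4 was the longest group, with 10 peaks over 27.9 kb. Its peaks counted 827 reads in the ChIP and 203 in the input, a fold of 4.55 (3.89 to 5.33). The peaks with the most reads were the last pair at its right end. The peak at chr19:44811803-44815401 had 188 ChIP and 47 input reads, for a fold of 4.46 (3.23 to 6.28). Its neighbour 406 bp to the left, at chr19:44808318-44811396, had 163 and 38 reads, a fold of 4.79 (3.34 to 7.0). They held 52.2 and 52.9 ChIP reads per kb, so they differed in width rather than in density. Further left in the group, 84 against 17 reads at chr19:44802992-44804611 gave 5.51 (3.25 to 9.91). At chr19:44794426-44796159, 83 against 19 reads gave 4.87 (2.93 to 8.5). The 5 peaks of the group not named here had 35 to 69 ChIP reads and folds of 3.23 to 5.58. The highest fold of any member, 8.26 (3.24 to 26.9), was at chr19:44792896-44794097 and rested on 37 ChIP reads against 5 input reads. Its interval overlapped those of all other peaks in the group, and its input density was the lowest of the members, at 0.462 times the chromosome median of 9 input reads per kb.

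Group 8 held 5 peaks over 17.9 kb, of which 1 carried most of the reads. That peak, at chr19:45202756-45208213, was 5458 bp wide and had 283 ChIP and 58 input reads, for a fold of 5.44 (4.09 to 7.35). By the authors' score it ranked 51 in the list. The other 4 peaks of the group were narrower, with 20 to 66 ChIP reads and folds of 2.42 to 4.27. Together the 5 peaks had 473 ChIP and 121 input reads, for a fold of 4.36 (3.56 to 5.37).

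Group 9 was built around the widest member, chr19:45281470-45290931, which is 9462 bp wide and ranked 10 in the list by the authors' score and 14 by width. It held 473 ChIP and 111 input reads (4.75-fold). Its flanking peaks had few reads. The one on its left, chr19:45276765-45277927, had 47 ChIP and 18 input reads, for a fold of 2.91 (1.66 to 5.33). The one on its right, chr19:45291032-45292029 and only 100 bp away, had 32 and 18 reads and was the 1 member below a fold of 2, at 1.98 (1.08 to 3.75). That value is close to the threshold and passed it with duplicate reads kept, with unshifted reads and with scaling to bins far from peaks. Over the 3 peaks the fold was 4.19 (3.49 to 5.06).

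**Figure D2:**
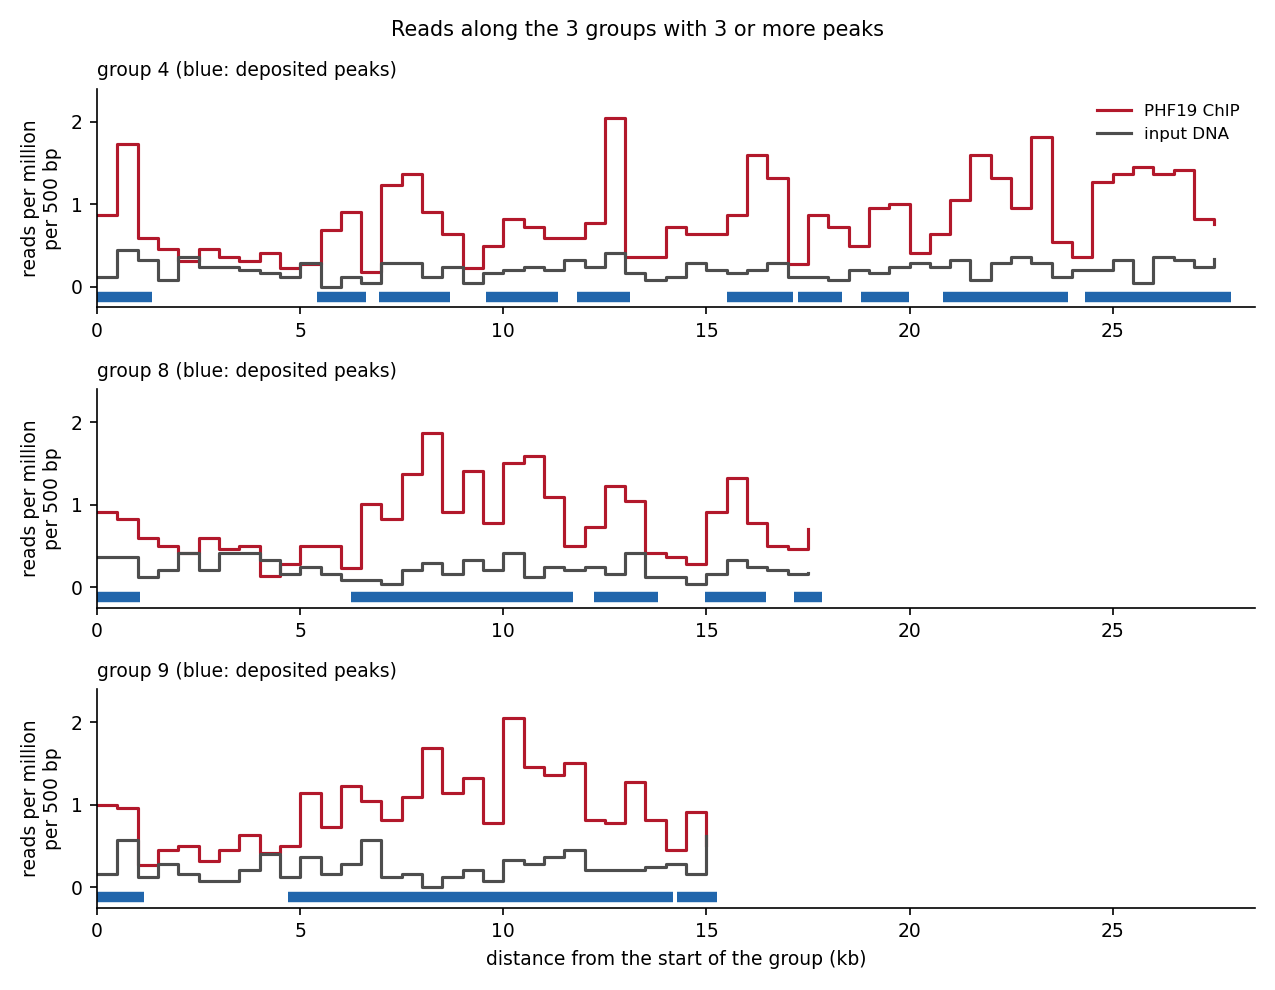
Scaled reads (RPM) per 500 bp (vertical axes) along groups 4, 8 and 9 (top to bottom), against the distance in kb from the start of each group. Red lines are the PHF19 ChIP, grey lines the input, and blue bars the deposited peaks. Group 4 shows many separate rises over 27.9 kb, whereas groups 8 and 9 each have 1 broad raised stretch that begins about 5 to 6 kb from the start of the group, after a small peak.

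Split into 3 equal parts, 1 of the 5 widest members had a part whose interval overlapped neither of the other parts. The peak edges came from these same ChIP reads, so the split is a description and was not tested. The same share over other peaks of the list is not given. The wide peak of group 9 had 129 ChIP and 43 input reads in its left part, a fold of 3.35 (2.35 to 4.84). The middle part had 199 and 26 reads, a fold of 8.54 (5.66 to 13.4), and the right part 145 and 42 reads, a fold of 3.85 (2.72 to 5.57). The interval of the middle part overlapped that of neither side, and the middle held both more ChIP reads and fewer input reads. In the wide peak of group 8 the left part was highest, with 77 and 10 reads and a fold of 8.59 (4.43 to 18.6), against 4.74 and 4.83 in the middle and on the right. There the ChIP counts were 77, 102 and 104, so the higher fold on the left came with fewer input reads and not with more ChIP reads, and the intervals overlapped. In both wide peaks of group 4 and in the peak of group 11 (3.52, 5.69 and 4.87 from left to right) the intervals of the 3 parts overlapped too.

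The other groups were small. Group 11, a single peak at chr19:45794126-45796279, had the highest ChIP density of the members, 65.0 reads per kb. Its 140 ChIP reads stood against 34 in the input, a fold of 4.59 (3.14 to 6.89). The single peak of group 1, chr19:44563936-44565830, had 94 and 27 reads, a fold of 3.88 (2.51 to 6.20). Group 10, at chr19:45353913-45356012, had 72 and 28 reads, a fold of 2.87 (1.83 to 4.61). In group 7 (chr19:45129675-45134325) the left peak was the larger, with 81 and 25 reads and a fold of 3.61 (2.28 to 5.91), and the right one had 50 and 18 reads at 3.10 (1.78 to 5.64). The pair of group 5 (chr19:44887717-44890322) had the lowest fold of any group, 2.79 (1.90 to 4.18), with 95 ChIP and 38 input reads. Its left peak had a fold of 2.59 on 65 ChIP reads and its right peak 3.35 on 30.

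The remaining single peaks were also the ones with few reads. Group 2 (chr19:44659973-44660645) rested on 22 ChIP and 8 input reads, for a fold of 3.07 (1.32 to 7.97). Here 26.7% of the ChIP reads were repeats at the same position and strand and were removed, against 3.74% over chromosome 19. Groups 3 (chr19:44723838-44724923) and 6 (chr19:45093293-45094344) had 39 ChIP reads each, with 14 and 11 input reads and folds of 3.11 (1.65 to 6.20) and 3.96 (1.99 to 8.56). The intervals of all 11 groups overlapped each other. Overlap alone does not show that the groups are alike, and an order among them was not tested.

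**Figure D3:**
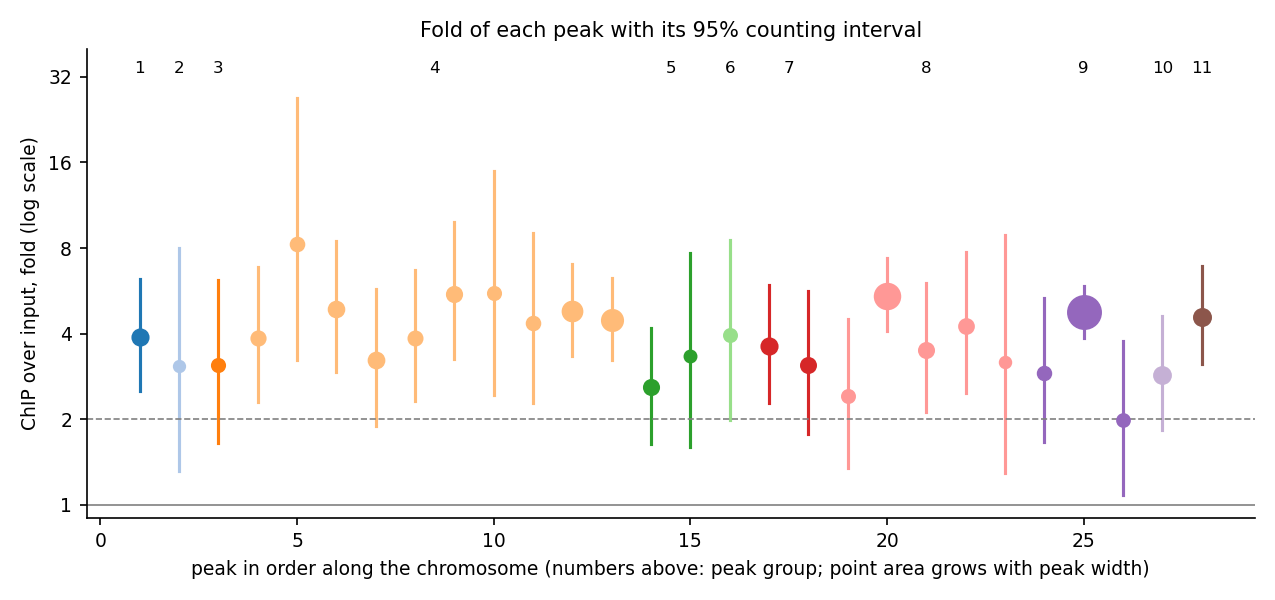
Fold of ChIP over input (vertical axis, log scale) for each of the 28 peaks in order along the chromosome, coloured by group, with the group numbers above. Lines are exact 95% counting intervals, point area grows with peak width, and the dashed line marks a fold of 2. Points lie between 1.98 and 8.26, and the intervals are narrowest at the widest peaks of groups 8 and 9.

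Between the peaks inside the groups, ChIP reads were still in excess. The 17 gaps between neighbouring peaks of a group had a median length of 691 bp and summed to 22.6 kb, with 417 ChIP and 225 input reads, for a fold of 2.07 (1.75 to 2.44). In group 4 these gaps had a fold of 2.27 (1.76 to 2.95), in group 8 of 1.99 (1.49 to 2.66) and in group 9 of 2.27 (1.47 to 3.55). The pairs were too thinly covered to say, with 25 ChIP and 20 input reads in the gap of group 7 and 3 and 4 in that of group 5. Pooled over its gaps, each of the 3 large groups was thus above input between its peaks, at a lower level than in them. Single stretches of 500 bp inside the groups were not all raised: the lowest folds in whole stretches were 0.868 in group 4 (7 ChIP and 9 input reads), 0.418 in group 8 (3 and 8) and 1.0 in group 9 (9 and 10). With 500 bp beside each peak left out, the fold between peaks was 1.86 (1.49 to 2.32). That value rests on the longer gaps, since gaps near the median length of 691 bp drop out.

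Outside the groups the ChIP came close to the input. The 12 stretches before, between and after the groups summed to 1423 kb and held 15846 ChIP and 16242 input reads, for a fold of 1.09 (1.06 to 1.11). On chromosome 19 beyond 100 kb from any peak the fold was 0.985 (0.98 to 0.989). With 2 kb beside the groups left out, the stretches had 1.07 (1.05 to 1.10), still above that level. Input reads were also denser in these stretches than on the chromosome, at 11.4 per kb against a mean of 9.38 far from peaks. The part of this difference in the fold was not tested.

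The stretches were not all alike. The one between groups 9 and 10 (61.9 kb) had the highest fold, 1.27 (1.15 to 1.41), followed by the one between groups 3 and 4 (62.6 kb) at 1.24 (1.12 to 1.37) and the one between groups 2 and 3 (63.2 kb) at 1.21 (1.09 to 1.35). The stretch between groups 1 and 2 (94.1 kb) was lowest, at 0.96 (0.883 to 1.04). The longest stretch without a peak ran for 438 kb from group 10 to group 11, with a fold of 1.06 (1.02 to 1.10). The stretch from group 5 to group 6, 203 kb long, had 1.08 (1.02 to 1.15). Both long stretches were close to input, though above the level of the chromosome far from peaks.

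Distance from a peak went with the level outside them. Bins of 1 kb that touched no peak held 1.56 times as many scaled ChIP as input reads (1.40 to 1.73) when they lay within 2 kb of one. The fold was 1.19 (1.09 to 1.31) at 2 to 5 kb, and bins 5 to 10 kb away had 1.14 (1.05 to 1.23). At 10 to 20 kb the fold was 1.07 (1.01 to 1.13), and at 20 to 50 kb 1.11 (1.07 to 1.16). At 50 to 100 kb it was 1.02 (0.965 to 1.07), and beyond 100 kb also 1.02 (0.973 to 1.07). The fold was highest in the bins nearest the peaks, and beyond 50 kb its interval included 1.

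**Figure D4:**
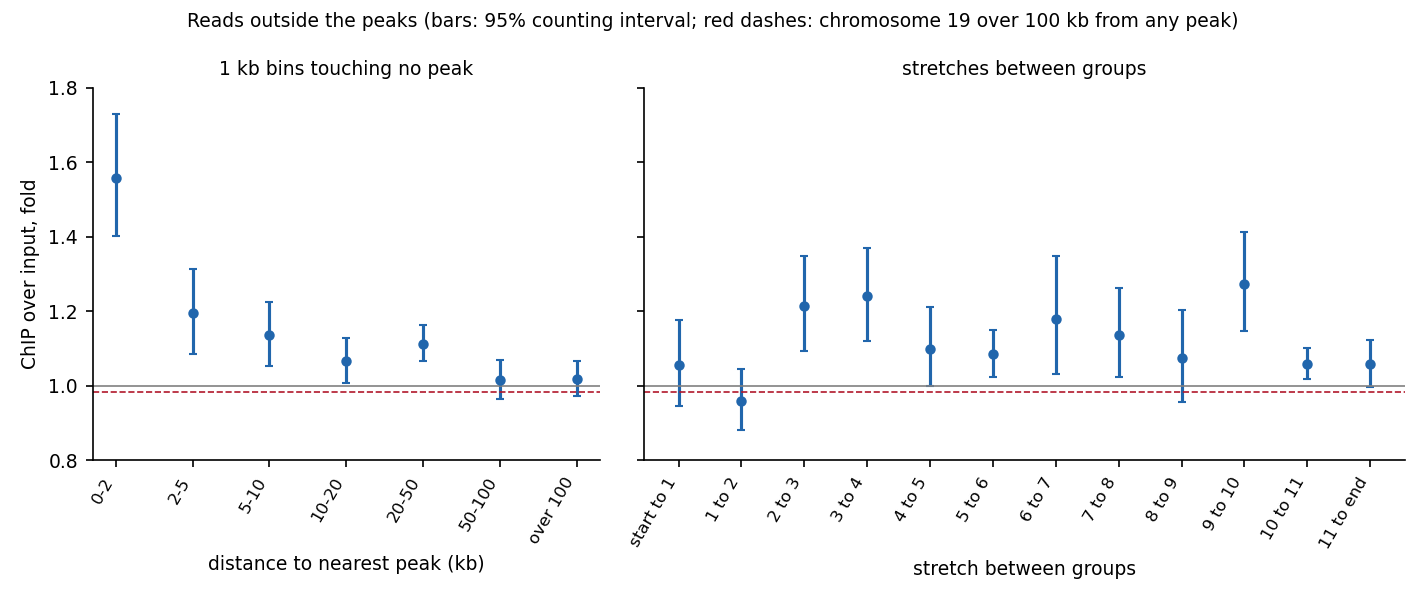
Fold of ChIP over input (vertical axis) outside peaks, for 1 kb bins by distance to the nearest peak in kb (left) and for the 12 stretches before, between and after the groups (right). Bars are exact 95% counting intervals, the grey line marks 1, and the red dashes mark chromosome 19 beyond 100 kb from any peak. The value falls from 1.56 beside peaks to 1.02 beyond 50 kb, and the stretches range from 0.96 to 1.27.

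A scan in bins of 1 kb scored the bins without the peak positions. The peaks and the window came from the same ChIP reads, so raised bins at peaks are part of that choice. A bin counted as raised at a fold of at least 2 with at least 20 ChIP reads, which 0.63% of tested bins did over the genome. In the window 84 of 1499 tested bins were raised, 60 of them among the 80 bins that touched a peak. The highest ChIP count of a raised bin was 82 against 18 input reads, in group 11 from position 45795001. Next came 74 against 17 in group 9 from 45287001 and 71 against 12 in group 8 from 45204001. In the widest peak, 53 ChIP reads against 5 input reads from 45284001 gave a fold of 11.8 (4.76 to 37.9), and 55 against 6 in the next bin gave 10.2 (4.41 to 29.1). Every group held at least 1 raised bin, and group 4 had 22 of its 29 bins raised.

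Raised bins that touched no peak numbered 24 of 1419 (1.69%), against 0.361% of such bins over the genome. The read minimum is easier to reach where reads are denser. The input of the window held 11.4 reads per kb, against a chromosome mean of 9.69 and a median of 9. The window was also chosen for its peaks, so more of its bins lie near a peak than over the genome. The genome share was not matched for distance from peaks. The 5 with the most ChIP reads began at 45790001, 44728001, 45040001, 45729001 and 44927001. The one at 45790001, 3125 bp left of group 11, had 33 ChIP and 12 input reads, for a fold of 3.07 (1.54 to 6.52). Those at 44728001 and 45040001 both had 27 and 12 reads, a fold of 2.51 (1.23 to 5.44). The one at 45729001 had 27 and 15 reads (2.01, 1.03 to 4.06), and the one at 44927001 had 26 and 12 (2.42, 1.18 to 5.26). The lower bounds of these 5 lay between 1.03 and 1.54. Among the other raised bins that touched no peak, the highest fold was 5.36 (2.0 to 18.0), from 24 against 5 reads at 44801001 inside group 4, and 4 had a lower bound under 1 (those from 45099001, 44879001, 45798001 and 44877001).

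In 5 places outside the groups, 2 or more of these bins lay within a few kb of each other. Beside group 3, 3 raised bins fell within chr19:44725001-44729000, where 89 ChIP and 40 input reads gave 2.48 (1.69 to 3.70). Right of group 9, 3 bins in a row at chr19:45294001-45297000 had 71 and 32 reads, a fold of 2.48 (1.61 to 3.88). A stretch at chr19:45593001-45596000 lay 198 kb from the nearest peak, inside the 438 kb without peaks, and had 68 and 33 reads, a fold of 2.30 (1.5 to 3.60). The 2 other places were lower, at 1.87 (1.20 to 2.95) for chr19:44877001-44880000 and 1.66 (1.11 to 2.50) for chr19:45099001-45102000. In tiles of 10 kb that touched no peak, 3 of 129 reached a fold of 1.5, where 0.787% of such tiles over the genome did. That share was not matched for distance from peaks either. The tile around the stretch far from peaks, chr19:45590001-45600000, was the highest at 1.62 (1.26 to 2.09). The other 2 were chr19:44930001-44940000 at 1.61 (1.25 to 2.10) and chr19:44770001-44780000 at 1.5 (1.17 to 1.95). These stretches were noticed in the counts themselves, so their folds are a description.

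The bin with the most ChIP reads outside the peaks was not raised over input. It lay at chr19:45703001-45704000, 90.1 kb from the nearest peak, with 74 ChIP and 77 input reads, for a fold of 1.07 (0.769 to 1.5). Input reads there were 8.56 times as dense as the chromosome median, and 28.2% of its ChIP and 57.7% of its input reads were repeats and had been removed. The 438 kb stretch had the same fold of 1.06 without it.

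The window was picked from the deposited peaks, not from input depth, strand balance or repeats. Whether the input was used in calling its peaks is not stated, so these measures are not known to be independent of the choice. Input density in the peaks was 12.3 reads per kb and 11.4 outside the groups, or 1.37 and 1.27 times the chromosome median, and single peaks ranged from 0.462 to 2.0 times. The chromosome median was 9 reads per kb and its mean 9.69, so the ratios would be lower against the mean. The share of plus-strand reads in the peaks was 51.9% (49.9 to 53.8) in the ChIP and 48.5% (44.7 to 52.4) in the input. Outside the groups it was 51.6% and 51.7%, and over chromosome 19 it was 53.0% and 52.4%. For the input in the peaks, the upper bound (52.36%) lay only just below the chromosome value (52.45%). In group 4 the input share was 43.8% (36.9 to 51.0) and in group 7 34.9% (21.0 to 50.9), both intervals below the chromosome. The 9 other groups had input intervals that included it. In the ChIP, group 4 was also below its chromosome value, at 49.3% (45.9 to 52.8). The ChIP interval of group 7 included that value, at 46.6% (37.8 to 55.5). The same count over other groups of the list is not given, so these shares are a description. Repeats made up 4.54% of ChIP and 3.71% of input reads in the peaks, against 3.74% and 3.76% over the chromosome.

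At the edges of the window no peak was close to the border. The last peak before it, chr19:43662661-43670905, lay 829 kb to the left and had 432 ChIP and 109 input reads, for a fold of 4.42. The first peak after it, chr19:46189045-46190515, lay 189 kb to the right, with 66 and 24 reads and a fold of 3.07. The outermost members were 63.9 kb and 204 kb inside. Chromosome 19 held 122 peaks, of which the window had 23.0%. Among 1764 tiles of 1.5 Mb along the chromosomes, 3 held more peaks than the window, and the median was 1. The window was placed on known peaks and the tiles were not, so this count describes how it was chosen.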

How the data were processed

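Both libraries were amplified for 14 PCR cycles and size-selected at 150 to 400 bp with adaptors, per the labels' protocols. The authors deposited aligned reads as start and end positions (mm8, Bowtie, both per the submitters' processing notes; Bowtie's version and how multiply matching reads were treated: not given in the sources used here) and 1 peak list with a score per peak, MACS output per the file headers. The ChIP had 23965625 reads, 21957101 of them distinct, and the input 26433784, of which 24496988 were distinct. All were 42 bases long.

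Reads at the same 5′ end and strand were counted once. The 5′ ends were moved inwards by 54 bp, from the input's strand lag of 108 bp, because the ChIP's lag of 41 bp was near the read length. Folds use the totals of distinct reads, with input counts below 3 raised to 3, and intervals are Clopper-Pearson. Bins needed 5 reads in both libraries together. Scripts were tested on simulated data. Every peak is accounted for; by rule the 10 highest in ChIP reads and 5 raised bins outside peaks are given in full, and further peaks and bins named beside them were singled out after their values were seen. The members and lists were chosen with earlier results of these data known. Tools were scipy 1.17.1, numpy 2.4.6, pandas 2.3.3, Python 3.11.15 and, for figures, matplotlib 3.10.9.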

Additional observations from a re-analysis of the deposited data

How the results depend on the processing

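Among 76 alternatives, folds of the window, the groups and the stretches between peaks and between groups all stayed within their counting intervals with duplicates kept, with unshifted reads, and with scaling to bins far from peaks or to chromosome 19, as did the folds outside peaks when bases beside peaks were left out. Counts depended on the thresholds, by construction. Of the 27 peaks at a fold of 2, 11 reached 4 and 16 had a lower bound of at least 2. In the whole list, 1400 and 1794 of 3445 peaks did. Raised bins numbered 84, and 245 in 500 bp bins, 19 in 5 kb bins, 29 at a fold of 4 and 204 with at least 10 ChIP reads. The 500 bp bins had a lower minimum of ChIP reads than 20, so their count is not at the same threshold. Shares over the genome at these other settings are not given. The 11 groups became 7 in the part of the list at or above its median score, which kept 16 of the 28 peaks, and 12, 11 and 10 with gaps of at most 5, 20 and 50 kb. No paired analysis was possible because each group has 1 library.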

Other observations

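Many of the gaps between groups had nearly the same length. Of 10 gaps between neighbouring groups, 5 measured 61.9 to 63.2 kb, while the others ranged from 35.3 to 438 kb. These were the gaps on both sides of group 3, the one between groups 7 and 8 and those on both sides of group 9. The likeness was noticed after the lengths were seen and was not tested.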
